A study of Mus musculus with 6 samples.

Results

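Notch signalling between neighbouring keratinocytes was examined through 10 genes: the receptors Notch1, Notch2 and Notch3, the ligands Jag1, Jag2 and Dll1, the target genes Hes1, Hey1 and Nrarp, and the DNA-binding effector Rbpj. They were taken by gene symbol from the table of 19618 genes, and all 10 were found and passed the filter on low counts. The libraries came from keratinocytes of the tail epidermis of mice aged 4 months, isolated with trypsin and dispase. The knockout group (3 samples) came from mice that carried K14cre, a transgene expressing Cre recombinase from the keratin 14 promoter, which is active in basal keratinocytes, and were homozygous for a floxed Gpr161 allele. The control group (3 samples) came from mice with a floxed Gpr161 allele and no K14cre per the labels: 1 was homozygous and the others were heterozygous. No control carried K14cre, so the presence of the transgene and the loss of Gpr161 cannot be told apart. The columns of the table name the group but not the sample, so libraries are called here by the tags in the column names, which are DE679, DE685 and DE688 among knockouts and DE680, DE684 and DE689 among controls. The labels do not say that each library came from a separate mouse, so p-values measure the spread between these libraries.

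Notch receptors are single-pass membrane proteins that are activated by Jagged or Delta-like ligands on an adjacent cell. Ligand binding exposes the receptor to cleavage by an ADAM protease and then by gamma-secretase, and the released intracellular domain joins Rbpj and a Mastermind-like coactivator on DNA. Hes and Hey genes, which encode transcriptional repressors, and Nrarp, which encodes a feedback inhibitor of the pathway, are well-known targets. In the epidermis Notch signalling is known for promoting the step from basal to spinous keratinocyte. Gpr161 is known as a ciliary receptor that restrains the Hedgehog pathway, and the comparison asks how the Notch genes differ when it is deleted in the epidermis.

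Total estimated counts lay between 17157864 and 25344399 per library. Gpr161 itself did not differ detectably, with 28.8 ± 4.23 CPM across knockout and 31.4 ± 1.10 CPM across control libraries (mean ± SD, n = 3 for each group), where CPM is a count scaled to a common library total with TMM factors. Its log2 fold change was -0.13 (edgeR quasi-likelihood adjusted p = 0.553, by Benjamini-Hochberg over all genes tested), so the count of the whole gene does not check the labels, and every direction given is that of the knockout label relative to the control label. The Hedgehog target gene Gli1 rose by 2.93 on the log2 scale (edgeR adjusted p = 1.77e-05). It had the largest change of 5 listed Hedgehog targets, whose log2 fold changes went from -0.015 to 2.93. Of these 5 genes, 4 passed an adjusted p of 0.05 in edgeR, all higher, where 1.60% of all genes tested passed. Keratinocyte markers were abundant: 8 basal markers summed to 27305 to 35109 CPM per library and 10 spinous and granular markers to 20358 to 37651 CPM. Y-linked transcripts were present in 1 knockout library, DE685, and 1 control library, DE684. In bulk samples such as these, fewer cells of a type and less RNA per cell cannot be told apart.

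None of the 10 Notch genes passed an adjusted p of 0.05 between knockout and control in the edgeR quasi-likelihood test, against 1.60% of the 15422 genes tested. At an unadjusted p under 0.05 there was 1 member, Hey1, or 10.0% of the members against 19.0% of all genes tested. The DESeq2 Wald test gave 0 members, against 5.89% of the genes for which it returned an adjusted p. The median log2 fold change of the members was 0.05, with 7 above and 3 below 0, beside -0.0036 for all genes tested. Without regard to sign, the median change was 0.11 for the members and 0.15 for all genes tested. The libraries of the groups did not overlap for Jag2 and Hey1, 2 of the 10, while 25.6% of all genes tested did not overlap.

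**Figure D1:**
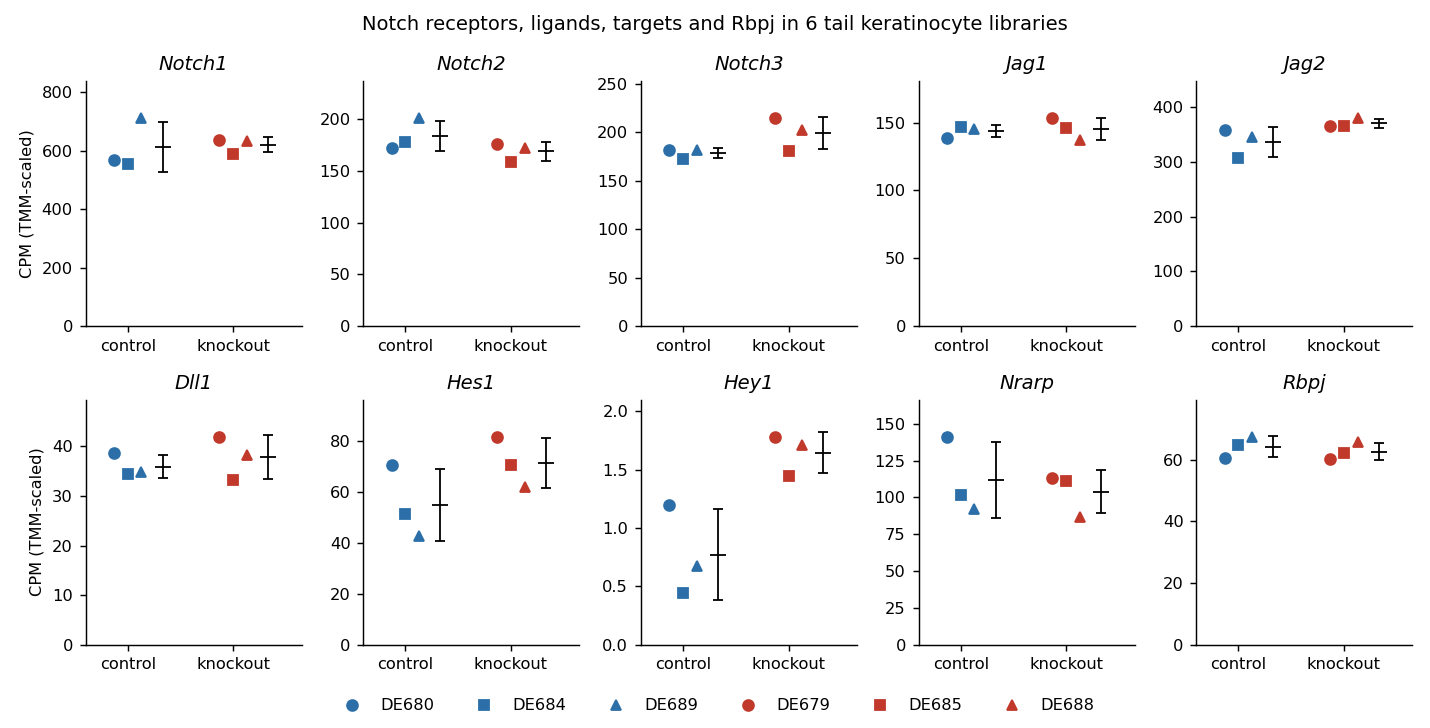
CPM with TMM scaling (y axis, from 0) of each member in the 3 control (blue) and 3 knockout (red) libraries, with the group mean and SD as black bars; a shape is shared by libraries whose tags are neighbours. The groups overlap in every panel except Jag2 and Hey1, and Hey1 lies below 2 CPM throughout.

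Per exon length, the members covered a wide range of transcript levels, down to a barely detected target. Dividing CPM by the summed exon length of the GENCODE vM21 gene model (GRCm38) allowed levels to be set side by side. Jag2 was highest at 50.8 ± 3.67 CPM per kb (SD over all 6 libraries), followed by Notch1 at 43.2 ± 4.00 and Nrarp at 41.8 ± 7.50 CPM per kb. Hes1 followed at 31.0 ± 7.00, Jag1 at 24.8 ± 1.03 and Notch3 at 23.4 ± 1.98 CPM per kb. The ranges over the libraries overlapped between each of these neighbours in the order, so their ranking is not fixed by these data. Below them the ranges no longer overlapped: Notch2 had 16.4 ± 1.28, Dll1 8.74 ± 0.79, Rbpj 4.97 ± 0.227 and Hey1 0.370 ± 0.169 CPM per kb. The sole DNA-binding effector of the pathway was thus measured at a lower level per kb than any of the 3 receptors. Exons of every annotated transcript count toward the length, 12.75 kb for Rbpj and 2.04 kb for Hes1, so a gene with rarely used exons is placed lower by this measure.

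**Figure D2:**
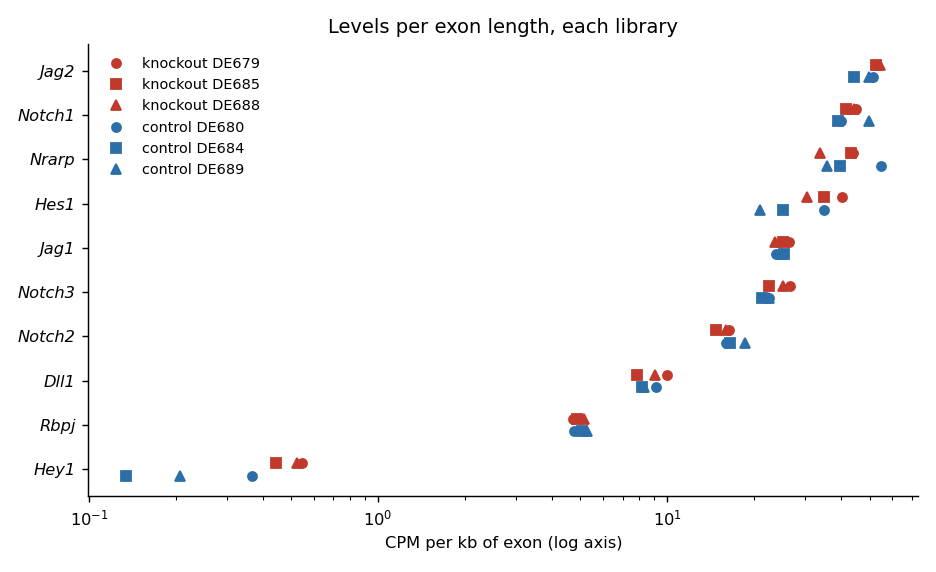
CPM per kb of exon (x axis, log scale) of each member in every library, ordered by the mean over 6 libraries; red is knockout and blue is control. Jag2 heads the order with 44.0 to 54.5 CPM per kb, and Hey1 stands apart at 0.134 to 0.545 CPM per kb.

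Notch1 (chromosome 2, 26457903 to 26516663, minus strand, GRCm38), the best-studied Notch receptor of the epidermis, was the most abundant receptor transcript and was nearly equal in the groups. It had 637 CPM (DE679), 589 (DE685) and 631 (DE688), against 569 (DE680), 554 (DE684) and 710 (DE689). The knockout libraries lay inside the control range, whose top was set by DE689 alone. On the log2 scale the change was 0.02 (edgeR adjusted p = 0.941, SE 0.10), with a 95% interval from 0.863-fold to 1.19-fold. Without DE689 it was 0.14, and without DE684 it was -0.05.

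Notch2 (chromosome 3, 98013527 to 98150361, plus strand), a receptor closely related to Notch1, had 176 CPM (DE679), 158 (DE685) and 172 (DE688). The controls had 173 CPM (DE680), 178 (DE684) and 201 (DE689). DE685 and DE688 lay below all controls and DE679 lay within them. This gave a log2 fold change of -0.12 (edgeR adjusted p = 0.413, SE 0.08), with a 95% interval from 0.814-fold to 1.04-fold.

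Notch3 (chromosome 17, 32120820 to 32166852, minus strand) is a receptor found in epidermis and in the mural cells of blood vessels. It had 215 CPM (DE679), 181 (DE685) and 203 (DE688), against 182 (DE680), 172 (DE684) and 182 (DE689). A pair of knockout libraries lay above all controls and DE685 lay among them. The fitted log2 fold change was 0.16 (edgeR adjusted p = 0.280, SE 0.07), with a 95% interval from 0.995-fold to 1.25-fold. The list of mural and smooth muscle markers summed to 149 to 184 CPM in the knockout and 105 to 126 CPM in the control over the 6 of 7 genes in the table. Nearly all of that sum was Cspg4, a proteoglycan also made by keratinocyte progenitors, with 101 to 176 CPM (log2 fold change 0.51, edgeR adjusted p = 0.0427). The pericyte markers Pdgfrb and Rgs5 had at most 1.01 and 1.14 CPM in any library, and Myh11, the smooth muscle myosin, at most 0.520 CPM. Acta2 and Tagln, which encode smooth muscle cytoskeletal proteins, reached 2.995 and 3.75 CPM, with overlapping groups. Rgs5 had 27, 4 and 28 counts in DE679, DE685 and DE688 and 5, 1 and 3 counts in DE680, DE684 and DE689; it was below the filter and not tested, although its CPM was higher in every knockout library than in any control. The part of mural cells in the Notch3 values was not tested.

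The balance among the receptors was computed within each library, after the levels had been seen, as the share of each in the summed CPM per kb of Notch1 to Notch4. Notch2 made up 18.6% (DE679), 18.7% (DE685) and 18.7% (DE688) among knockouts, and 20.4% (DE680), 21.5% (DE684) and 20.5% (DE689) among controls. The knockout libraries were thus close together and all below the controls, 18.7% ± 0.028 against 20.8% ± 0.598 (mean ± SD, n = 3 for each group). The CPM of Notch2 itself overlapped between the groups, and the CPM of 25.6% of all genes tested did not overlap. The shares of a library add up to a whole, so a lower share of a receptor means a higher share of the others together. The Notch1 share overlapped between the groups, with 51.9% ± 0.824 in the knockout and 52.1% ± 2.31 in the control. The Notch3 share was 29.4% ± 0.880 against 27.0% ± 2.04, and the lowest knockout library, DE685 with 28.5%, lay just under the highest control, DE680 with 28.6%. Notch4, the receptor of endothelial cells, never exceeded 0.233% of the sum. An exact two-sided permutation test of 3 libraries against 3 cannot go below p = 0.1, so that test cannot pass a threshold of 0.05 and the shares are given as a description.

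**Figure D3:**
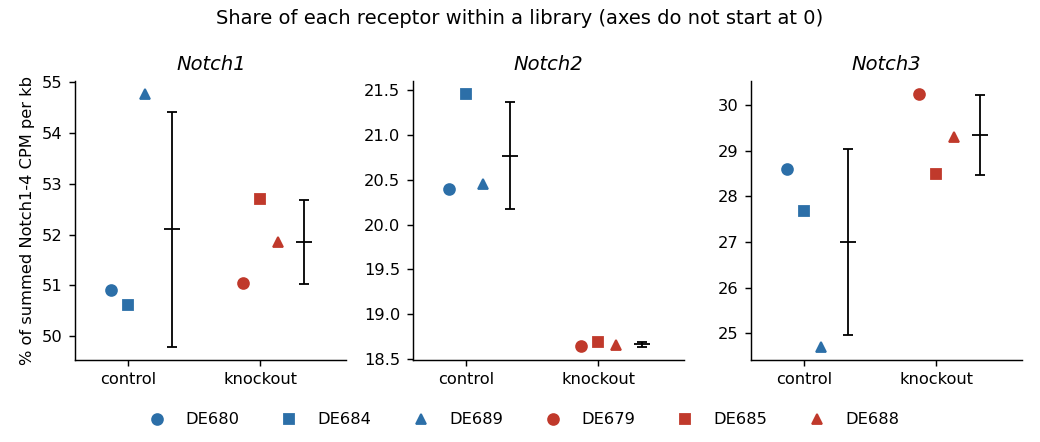
Share of each receptor (y axis, percent of the summed CPM per kb of Notch1 to Notch4 in a library; the axes do not start at 0) in control (blue) and knockout (red) libraries, with the group mean and SD as black bars. Notch2 shows 18.6% to 18.7% in the knockout libraries and 20.4% to 21.5% in the controls, while the Notch1 and Notch3 shares overlap.

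Among the ligands, Jag2 was the most abundant and the one whose groups did not overlap. Jag2 (chromosome 12, 112907819 to 112929776, minus strand), a Jagged ligand of basal keratinocytes, had 365 CPM (DE679), 367 (DE685) and 380 (DE688). The controls had 358 CPM (DE680), 307 (DE684) and 346 (DE689), so the lowest knockout library lay only slightly above the highest control. The log2 fold change was 0.14 (edgeR adjusted p = 0.334, SE 0.07), with a 95% interval from 0.981-fold to 1.23-fold.

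Jag1 (chromosome 2, 137081456 to 137116644, minus strand), the other Jagged ligand, had 153 CPM (DE679), 146 (DE685) and 137 (DE688). Its control values were 138 CPM (DE680), 147 (DE684) and 146 (DE689), so both groups covered the same range. On the log2 scale the change was 0.02 (edgeR adjusted p = 0.918, SE 0.06), and the 95% interval, from 0.917-fold to 1.11-fold, was the narrowest of all 10 members on the log2 scale.

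Dll1 (chromosome 17, 15367354 to 15376872, minus strand), a Delta-like ligand known from clusters of epidermal stem cells, had 41.9 CPM (DE679), 33.2 (DE685) and 38.4 (DE688). The controls had 38.6 CPM (DE680), 34.4 (DE684) and 34.9 (DE689), and the knockout libraries lay on both sides of them. This gave a log2 fold change of 0.07 (edgeR adjusted p = 0.728, SE 0.10). Per kb, Jag2 held 56.8% to 62.6% of the summed ligand level in a library, Jag1 27.0% to 32.6% and Dll1 9.19% to 11.2%. Dll4, the endothelial ligand, held at most 0.0744% and had at most 6 counts in any library. All these ligand shares overlapped between the groups.

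Hes1 (chromosome 16, 30064384 to 30067796, plus strand), a repressor of the basic helix-loop-helix family and a direct Notch target, had higher values in most but not all knockout libraries. It had 81.7 CPM (DE679), 70.7 (DE685) and 61.8 (DE688), against 70.7 (DE680), 51.2 (DE684) and 42.8 (DE689). The groups overlapped because DE680 stood above the other controls and level with DE685. The means were 71.4 ± 9.95 CPM across knockout and 54.9 ± 14.3 CPM across control libraries (mean ± SD, n = 3 for each group). The fitted log2 fold change was 0.38 (edgeR adjusted p = 0.304, SE 0.18), with a 95% interval from 0.971-fold to 1.75-fold. Without DE680 it was 0.60 (edgeR adjusted p = 0.120), and without DE689 it was 0.23 (edgeR adjusted p = 0.541).

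The Hes1 call depended on whether libraries with neighbouring tags were compared in pairs. Hes1 was 1.16 times as high in DE679 as in DE680, 1.38 times as high in DE685 as in DE684 and 1.45 times as high in DE688 as in DE689. A fit with these pairs as blocks, chosen after the data were seen, gave a log2 fold change of 0.40 (edgeR adjusted p = 0.0351, SE 0.08). In that fit 4.56% of all genes tested passed. Deviations from the group means correlated within each pair across genes, with r from 0.238 to 0.410, genes not being independent replicates. Only these pairs were read out, so no value from other pairs of libraries stands beside them. DE684 and DE685 are also the libraries with Y-linked transcripts, and the part of this in their correlation was not tested. The meaning of the tags is not given, so this pairing comes from the column names and not from the stated design. No other member passed in that fit, where the next smallest adjusted p was that of Hey1, 0.110.

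Hey1 (chromosome 3, 8663359 to 8667256, minus strand), a repressor related to Hes1, had the largest log2 fold change among the members but rests on few counts. It was counted 42, 25 and 44 times in the knockout libraries DE679, DE685 and DE688 and 27, 10 and 17 times in the control libraries DE680, DE684 and DE689. In CPM these were 1.78, 1.44 and 1.71 in the knockout and 1.20, 0.439 and 0.674 in the control, so all knockout libraries lay above all controls. The log2 fold change was 1.10 (unadjusted p = 0.0220, edgeR adjusted p = 0.192, SE 0.38), with a 95% interval from 1.15-fold to 3.97-fold. It was 1.55 without DE680, the highest control, and 0.82 without DE684, the lowest. The lowest value under any alternative was 0.60, from limma-trend on the authors' normalized signal. Hey1 is also expressed in blood vessels. The 7 endothelial markers summed to 4.62 to 5.52 CPM in the knockout and 5.28 to 8.42 CPM in the control, and 0 of the 6 that were tested passed in edgeR, 1 having an unadjusted p under 0.05 and 5 having negative log2 fold changes. Their part in the Hey1 values was not tested.

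Nrarp (chromosome 2, 25180758 to 25183339, plus strand), the ankyrin-repeat feedback inhibitor, had 114 CPM (DE679), 111 (DE685) and 86.9 (DE688), against 141 (DE680), 102 (DE684) and 92.1 (DE689). The knockout libraries lay within or below the control range. On the log2 scale the change was -0.10 (edgeR adjusted p = 0.779, SE 0.17), with a 95% interval from 0.710-fold to 1.22-fold, and it was 0.10 without DE680. The antisense gene Gm38287 overlaps 79.4% of the Nrarp exon sequence, and counting by strand is not given in the sources used here. The table assigned at most 16.99 counts to Gm38287 in any library.

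Hes1, Hey1, Nrarp, Dll1 and Jag2 were all highest among the controls in DE680. Within the knockout, DE679 was the highest library for 8 of the 10 members, the exceptions being Jag2 and Rbpj, which were highest in DE688. The share of all genes tested that were highest in DE680 or in DE679 was not computed.

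Rbpj (chromosome 5, 53466152 to 53657362, plus strand), through which all 4 receptors signal, was the steadiest member relative to its mean along with Jag1. It had 60.2 CPM (DE679), 62.0 (DE685) and 65.6 (DE688), against 60.5 (DE680), 64.9 (DE684) and 67.4 (DE689). The groups covered the same range, with a log2 fold change of -0.04 (edgeR adjusted p = 0.803, SE 0.07) and a 95% interval from 0.875-fold to 1.09-fold. The processed pseudogene Rbpj-ps3 was assigned up to 56.4 counts, at most 4.14% of those of Rbpj in the same library, so a small part of the Rbpj reads may be divided between them.

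Exons of Notch1, Notch2, Notch3 and Dll1 also overlap other annotated genes, by 10.4%, 5.02%, 6.03% and 20.5% of their exon length. The overlapping genes that are in the table had at most 19.2 counts in any library. Jag1, Jag2, Hes1, Hey1 and Rbpj have no such overlap in GENCODE vM21.

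Beyond the members, 55 further genes of the pathway were listed by function, of which 51 were in the table and 48 were tested. In the edgeR quasi-likelihood test 0 of the 48 passed an adjusted p of 0.05. At an unadjusted p under 0.05 there were 9, or 18.8% against 19.0% of all genes tested, 7 of them higher and 2 lower in the knockout, where 9.90% and 9.10% of all genes tested were. The DESeq2 Wald test gave 4, all higher, beside 5.89% of all genes with an adjusted p: Dtx3, Mib2, Maml2 and Lfng. The median log2 fold change of the 48 was 0.0035. Their groups did not overlap for 10 of the 48, 8 higher and 2 lower, beside the 25.6% of all genes tested.

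The remaining Hes and Hey genes were all near or under 1 CPM except Hes6. Heyl, a Hey-family repressor, was counted 30, 18 and 27 times in knockout libraries (in the order DE679, DE685, DE688) and 12, 13 and 14 times in controls (DE680, DE684, DE689). Its means were 1.12 ± 0.131 CPM across knockout and 0.553 ± 0.0191 CPM across control libraries (mean ± SD, n = 3 for each group), and the groups did not overlap. This gave a log2 fold change of 1.01 (edgeR adjusted p = 0.132, SE 0.29), a size close to that of Hey1. The lowest value of Heyl under any alternative was 0.45, from limma-trend on the authors' normalized signal. Hes6, a Hes relative that opposes Hes1, had 13.2 ± 1.01 against 11.4 ± 0.611 CPM, without overlap (log2 fold change 0.21, edgeR adjusted p = 0.335). Hes2 and Hes7 had log2 fold changes of 0.21 and 0.49 with overlapping groups. The 4 tested genes of this list thus had log2 fold changes above 0, and none passed the threshold in edgeR. Hey2, another Hey-family repressor, was counted lower, with 3, 1 and 5 counts in the knockout libraries and 9, 7 and 10 in the controls. Its groups did not overlap, and it was below the filter and not tested.

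Of the genes that act on ligands and receptors, 13 in this list, the ubiquitin ligase genes Dtx3 and Mib2 came closest to the threshold. Dtx3, of the Deltex family, had 32.2 CPM (DE679), 28.4 (DE685) and 30.5 (DE688), against 23.3 (DE680), 23.1 (DE684) and 21.7 (DE689). All knockout libraries lay well above all controls, with a log2 fold change of 0.42 (edgeR adjusted p = 0.0522, SE 0.08). Mib2, a Mind bomb ligase that promotes ligand endocytosis, had 33.6, 30.4 and 31.6 CPM in the same knockout libraries and 25.5, 23.1 and 24.0 CPM in the same controls. Its log2 fold change was 0.40 (edgeR adjusted p = 0.0568, SE 0.08). Dtx3 and Mib2 lay just short of the threshold. They passed it in DESeq2 (adjusted p = 0.00542 and 0.00784), where 5.89% of all genes with an adjusted p did. They also passed with a covariate for Y-linked transcripts (edgeR adjusted p = 0.0471 and 0.0418), where 409 genes did. With neighbouring tags as pairs they passed too (0.0376 and 0.0346), where 4.56% of all genes tested did. Neither passed with RLE or upper-quartile factors, a minimum mean of 1 CPM, no filter, limma-voom or limma-trend (adjusted p from 0.05002 to 0.0706). Without any one library neither passed in edgeR, with adjusted p from 0.0731 to 0.211 for both together.

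Itch and Fbxw7 had lower values in the knockout libraries. Itch, which ubiquitinates Notch, had 69.2 ± 3.44 CPM across knockout and 82.5 ± 5.53 CPM across control libraries (mean ± SD, n = 3 for each group), a log2 fold change of -0.25 (edgeR adjusted p = 0.125, SE 0.07). Fbxw7, which marks the cleaved intracellular domain for degradation, had 44.0 ± 4.29 against 52.5 ± 2.15 CPM, a change of -0.25 (edgeR adjusted p = 0.179, SE 0.09). Neither overlapped between the groups. Mib1, the ligase for ligands that is related to Mib2, had a log2 fold change of -0.14 (edgeR adjusted p = 0.442).

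Of 6 genes that modify the receptor on its way to the surface, Lfng and Pofut1 did not overlap between the groups. Lfng, a Fringe glycosyltransferase that changes which ligands a receptor responds to, had 67.7 ± 7.26 against 54.2 ± 2.47 CPM (log2 fold change 0.32, edgeR adjusted p = 0.125, SE 0.09). Pofut1, which adds the fucose that Fringe extends, had 42.7 ± 4.49 against 36.3 ± 0.665 CPM (log2 fold change 0.24, edgeR adjusted p = 0.205, SE 0.09). The other Fringe genes Mfng and Rfng had changes of -0.19 and 0.02. The 9 genes of receptor cleavage gave a median of -0.0045, and none had an unadjusted p under 0.05. Among them Adam10, the protease of the first cut, had a log2 fold change of 0.14 (edgeR adjusted p = 0.316) and the gamma-secretase subunit gene Aph1c one of 0.41 (edgeR adjusted p = 0.285), both with overlapping groups.

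The nuclear complex was represented by 14 genes with a median log2 fold change of -0.03. Maml2, a Mastermind-like coactivator, had 29.2 ± 2.40 CPM across knockout and 22.9 ± 0.395 CPM across control libraries (mean ± SD, n = 3 for each group; log2 fold change 0.35, edgeR adjusted p = 0.0932, SE 0.08). Its relatives Maml1 and Maml3 had changes of -0.01 and -0.08. Tle1, a Groucho-family corepressor that binds Hes proteins, had 78.3 ± 12.5 against 59.6 ± 7.78 CPM (log2 fold change 0.39, edgeR adjusted p = 0.177, SE 0.13), and passed with neighbouring tags as pairs (edgeR adjusted p = 0.0160). Maml2 and Tle1 did not overlap between the groups, although the highest Tle1 control, DE689 with 67.7 CPM, lay close to the lowest knockout library, DE679 with 69.0 CPM.

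**Figure D4:**
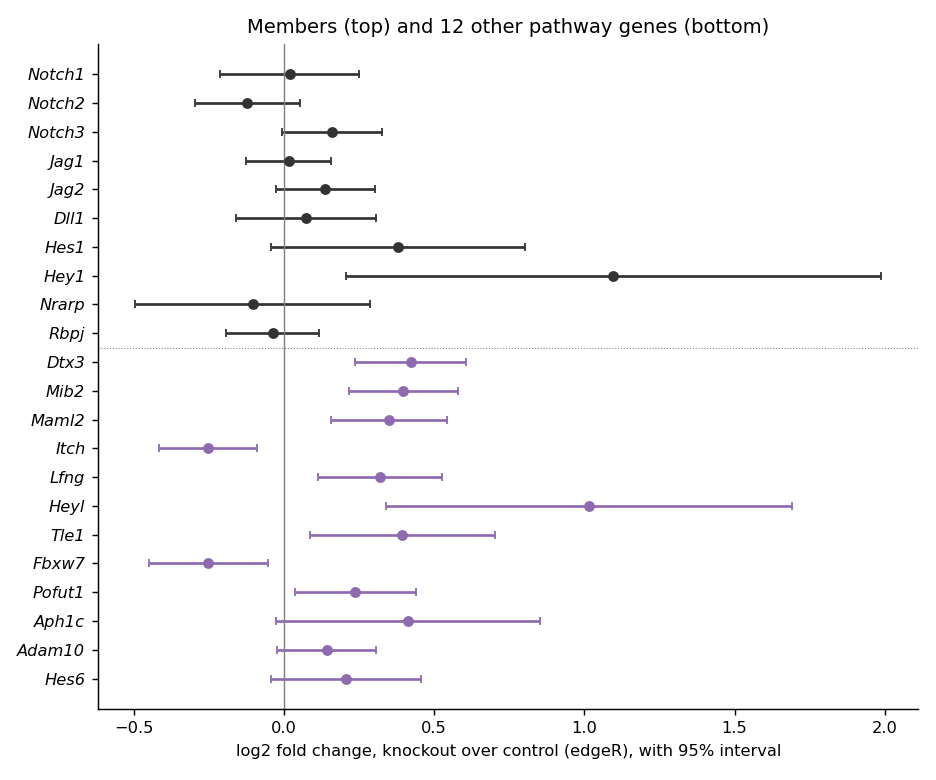
Log2 fold change of knockout over control (x axis) from edgeR with its 95% interval, for the 10 members (dark) and for the 12 other pathway genes with the smallest unadjusted p (purple). The intervals are unadjusted; that of Hey1 is the only one among the members to lie wholly above 0, and Itch and Fbxw7 lie wholly below 0.

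Markers of the cell states and of the other cells in the preparation were read beside these values. All 10 spinous and granular markers had negative log2 fold changes, with a median of -0.29. Of these, 0 passed in edgeR and 4 had an unadjusted p under 0.05, where 1.60% and 19.0% of all genes tested did. With neighbouring tags as pairs 3 of these markers passed, where 4.56% of all genes did: Calm4 (edgeR adjusted p = 0.00949), Dsc1 (0.0337) and Krtdap (0.0382). The same 3 genes passed in DESeq2 (adjusted p = 4.96e-05, 0.000436 and 0.00152), where 5.89% of all genes did. With the covariate for Y-linked transcripts, where 409 genes passed, Calm4 (edgeR adjusted p = 0.0117) and Dsc1 (0.0382) did. In limma-voom Calm4 passed (adjusted p = 0.0483), and Krtdap passed in neither of these fits. Under the remaining alternatives no spinous or granular marker passed. The 8 basal markers had a median of 0.05, with 5 above and 3 below 0. In edgeR 0 of the 8 passed the threshold and 2 had an unadjusted p under 0.05. Krt15, a keratin of basal cells, was higher and passed with the tag pairs (edgeR adjusted p = 0.0293) and with the covariate (0.0337). In DESeq2 Krt15 (adjusted p = 0.00320) and Trp63 (0.00717) passed. Summed levels of the 7 fibroblast markers were 129 to 142 CPM in the knockout and 37.7 to 79.5 CPM in the control. Most of that sum was Dcn, a proteoglycan of the dermis, which averaged 119 CPM over the knockout libraries against 31.9 CPM over the controls. The collagen genes Col1a1, Col1a2 and Col3a1 had log2 fold changes of -0.38, -0.42 and -0.54, and the median of the 5 tested fibroblast markers was -0.38, with 3 of them below 0. The 7 immune markers summed to 53.3 to 128 against 31.6 to 109 CPM, and the 7 melanocyte markers to 86.0 to 125 against 59.0 to 86.2 CPM. In edgeR 1 of 5 tested fibroblast markers passed, Dcn (log2 fold change 1.90, adjusted p = 0.00782), beside 0 of 7 immune and 0 of 7 melanocyte markers. Of these immune and melanocyte lists, 0 and 3 genes had an unadjusted p under 0.05. All 7 genes of either list had log2 fold changes above 0, with medians of 0.51 and 0.53. With the tag pairs Cd74 (edgeR adjusted p = 0.0438) and Mitf (0.0273) passed, both higher, and in DESeq2 Pmel did (adjusted p = 0.0418). No marker in the table was at 0 in every library. The part of these cells in the Notch values was not tested.

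Promoters of 8 members, all but Hes1 and Hey1, were found in the RefSeq table for GRCm38.p6 as 10 windows, each from 250 bases before to 50 bases after a transcription start. The RBPJ motif GTGGGAA occurred on either strand in 0 of the 10 windows and in 6.38% of all 32851 windows. The GLI motif GACCACCCA occurred in 0 of the 10 and in 0.253% of all windows. At such shares 0 of 10 windows is an ordinary outcome for either motif, so nothing is concluded from it. Neither motif contains the other.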

How the data were processed

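Polyadenylated RNA of 6 tail keratinocyte preparations was sequenced as stranded libraries, per the labels' protocols. The submitters' processing notes name bcl2fastq 2.20, cutadapt 1.18, STAR 2.7.0f, Partek and the build mm10; the settings, the annotation and the use of strand in counting are not given in the sources used here. The authors deposited estimated counts per gene, of which 53.0% to 57.7% per library were whole, and a normalized signal per gene, whose scaling method is not given. Of the 19618 genes, 18920 had the start and end of GENCODE vM21.

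Estimated counts were rounded and all 6 libraries were fitted with edgeR 4.0.16 (filterByExpr, TMM, glmQLFit, glmQLFTest, genotype only) in R 4.3.3; this test had been laid out for counts and was kept. P-values were adjusted by Benjamini-Hochberg over the 15422 genes tested. Standard errors were derived from each F statistic, and 95% intervals from these and the total degrees of freedom. Totals and counts of single libraries are given without an interval, and libraries of a group differed by more than counting error. The fit was tested on simulated data. Alternatives were upper-quartile or RLE factors, a minimum mean of 1 CPM or no filter, DESeq2 1.42.0, limma-trend (limma 3.58.1) on log2 of the authors' normalized signal plus 1, limma-voom, a covariate for Y-linked transcripts, each library left out in turn and neighbouring tags as pairs. No library was a copy of another of its own group (chi-square over degrees of freedom 11.2 to 36.3), and pairs across the groups were not compared this way.

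The members, the pathway and marker lists and the motifs were chosen with earlier results of these data known. Genes named beyond the members are the 12 pathway genes with the smallest unadjusted p, and others named after their values were seen. A further listed gene is not reported here.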

Additional observations from a re-analysis of the deposited data

How the results depend on the processing

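The number of members past the threshold was 0 under each alternative other than the tag pairs, including the 6 fits that left out one library, and 1 (Hes1) with neighbouring tags as pairs. For the other pathway genes the number was 0, against 4 with DESeq2, 2 with the covariate for Y-linked transcripts and 3 with neighbouring tags as pairs; it was 0 in each fit that left out one library. Over all genes, 247 passed, against 872 with DESeq2, 409 with the covariate, 704 with neighbouring tags as pairs and 69 (without DE688) to 121 (without DE684) when one library was left out. The fits that left out a library also had fewer libraries, and the cause of the decreases and of the increases was not tested. As to the labels' replicate numbers, no paired analysis was possible because none stand in the column names. The fit with neighbouring tags as pairs is a blocked analysis that was added after seeing the data and was set up from the tags.

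Leaving out one library turned the direction of 5 members with changes near 0: Notch1 ranged from -0.048 to 0.14, Jag1 from -0.019 to 0.057, Dll1 from -0.0024 to 0.16, Nrarp from -0.22 to 0.10 and Rbpj from -0.080 to 0.00024. Of the 132 such values over the 22 named genes, 8 turned and 124 kept direction and side of the threshold; of 197 values under the other 9 alternatives, 187 kept both and 10 kept the direction and passed. Depth limits Hey1, Heyl and the other genes near 1 CPM, which rest on few counts.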
